A study of Homo sapiens with 6 samples.

Results

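Acute-phase and secreted antimicrobial proteins were followed through 10 genes, LCN2, LTF, RNASE7, DEFB1, PTX3, SERPINA1, SERPINA3, CP, LBP and ORM1. Every probe set that the array annotation gave to one of these genes alone was taken, which left 19 of the 54613 probe sets tested on the array. The cells were MCF10A, an immortal but non-tumorigenic line from the human breast epithelium. The 3 arrays of cells with C/EBPbeta-2, a form of the transcription factor C/EBPbeta, the product of CEBPB, were set against the 3 arrays of MCF10A cells alone, called control. Both groups grew in the same medium, with horse serum, insulin, hydrocortisone, epidermal growth factor and cholera toxin, and no treatment was given. The labels do not say by what means the cells came to carry C/EBPbeta-2, or whether they were a pool or a clone. They number the samples of a group as biological repeats but do not say how these were separated, so each p-value measures the spread between these samples, which may be technical.

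The acute phase is the change in secreted proteins that follows infection or injury. Interleukin-6 and interleukin-1 drive it in the liver, through STAT3, NF-kappaB and C/EBP factors together with glucocorticoid. C/EBPbeta has been described as a factor that binds control regions of interleukin-6-responsive genes. Epithelia make several of the same proteins, along with peptides and enzymes that kill microbes or withhold iron from them.

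None of the 10 genes passed the test with C/EBPbeta-2. A gene was called at a limma adjusted p under 0.05 over all 19775 genes, each read at the brightest of its probe sets, and 0.263% of all genes were called. At an unadjusted p under 0.05 limma picked 2 of the 10, beside 5.4% of all genes: RNASE7 was higher, as were 2.66% of all genes, and PTX3 was lower, as were 2.74%. The groups did not overlap for 3 of the 10 genes, beside 8.63% of all genes. RNASE7 was higher without overlap, as were 4.62% of all genes, and DEFB1 and PTX3 were lower, as were 4.01%. By probe set, 0 of 19 were called and 3 had an unadjusted p under 0.05, beside 0.0659% and 3.98% of all probe sets. The groups did not overlap for 4 of the 19, beside 7.62% of all. The log2 differences, C/EBPbeta-2 minus control, ran from -1.80 (PTX3) to 1.27 (RNASE7), with 4 genes above 0 and 6 below it. Their median was -0.07, and that of all genes was 0.01.

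**Figure D1:**
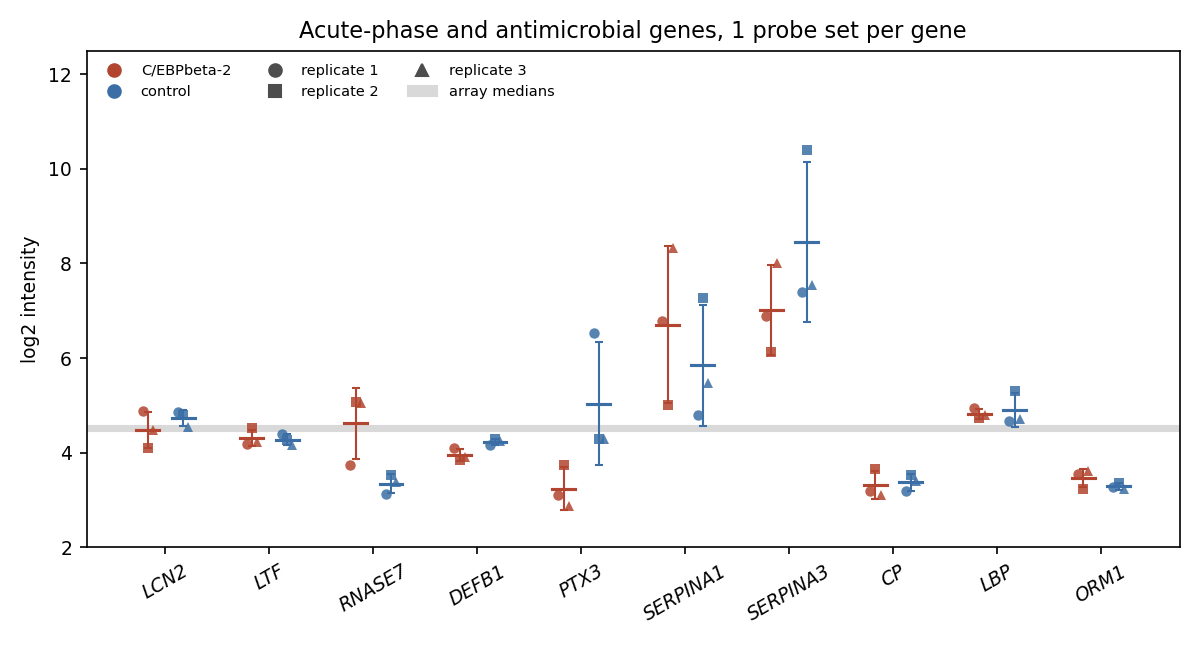
Log2 intensity (vertical axis) of the 10 genes (horizontal axis) on each of the 6 arrays, C/EBPbeta-2 in red left of control in blue, symbols by replicate number, with the mean as a bar and the SD as an error bar (n = 3); the grey band spans the array medians, 4.46 to 4.56. RNASE7 and PTX3 stand apart between groups, and SERPINA1 and SERPINA3 spread most within them.

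Of the 10 genes, 6 had a mean under the array medians, and the gene means ran from 3.34 to 7.73 (log2 intensity). The median probe set of each array lay at 4.46 to 4.56 (log2 intensity), and a gene's brightest probe set was above its own array's median on all 6 arrays for 3 genes, SERPINA1, SERPINA3 and LBP, on some arrays for 4 and on none for 3. No detection calls were used here, so a value near or under that level has no stated background, and a fold computed from it is uncertain. The arrays were not alike at their control probe sets. Those for poly-A spike-in RNA averaged 3.85 (log2 intensity) for C/EBPbeta-2 replicate 2 and 3.98 for control replicate 1. Both lay under the medians of their own arrays, 4.46 and 4.49, and whether such RNA was added to those samples was not tested. The remaining 4 arrays lay between 7.21 and 8.25, so each difference was also taken within the low and within the high level. CEBPB itself read 10.29, 10.50 and 11.38 on the C/EBPbeta-2 arrays and 11.27, 11.38 and 11.37 on the control arrays, lower with C/EBPbeta-2 by the means (log2 difference -0.62, SE 0.29, limma adjusted p = 1.00). The difference ran against the label. It stayed below 0 with any 1 array left out (-0.95 to -0.40) and under every other alternative that could change it. The probe set therefore gives no check that the cells carried more CEBPB RNA. Where its probes lie on the transcript was not used here. Of the 12 markers chosen for the basal epithelium of MCF10A, 8 were measured, all well above the array medians, and 1 of them fell with C/EBPbeta-2, the basal keratin KRT14 (log2 difference -3.005, adjusted p = 0.0347). That call was lost when any array other than C/EBPbeta-2 replicate 2 was left out (adjusted p 0.0905 to 0.219) and when each array was centred on its median (0.0560). The log2 differences of the 8 basal markers went both ways, 3 above 0 and 5 below it, with a highest of 1.17. At an unadjusted limma p under 0.05, 1 was higher and 1 lower. In RNA from whole cultures, fewer cells of a type and less RNA per cell cannot be told apart.

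Promoter sequences were available for 7 of the 10 genes, as windows of 300 bases from 250 before to 50 after each annotated start (RefSeq, GRCh38.p14). The 4 shown here are those of RNASE7 and PTX3, with the largest differences among genes whose groups did not overlap, of SERPINA3, with one of the widest spreads between arrays, and of LCN2, whose promoter is a textbook target of NF-kappaB and C/EBP factors. Each is printed from 250 bases before the start to the base before it, 5′ to 3′ on the gene's strand, with capitals on the letters TTNNGNAA (C/EBP) and GGGNNNNTCC (NF-kappaB) on either strand.
RNASE7, chr14:21042112-21042361, plus strand: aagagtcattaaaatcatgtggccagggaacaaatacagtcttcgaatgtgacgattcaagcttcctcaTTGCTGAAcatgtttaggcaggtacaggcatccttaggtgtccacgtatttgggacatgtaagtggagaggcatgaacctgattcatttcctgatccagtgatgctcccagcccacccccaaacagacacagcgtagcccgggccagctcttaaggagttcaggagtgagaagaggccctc
PTX3, chr3:157436600-157436849, plus strand: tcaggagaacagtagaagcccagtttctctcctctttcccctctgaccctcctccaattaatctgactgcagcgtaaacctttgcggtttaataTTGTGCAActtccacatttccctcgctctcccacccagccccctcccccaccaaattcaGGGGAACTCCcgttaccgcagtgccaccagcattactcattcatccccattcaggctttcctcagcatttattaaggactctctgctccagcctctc
SERPINA3, chr14:94612141-94612390, plus strand: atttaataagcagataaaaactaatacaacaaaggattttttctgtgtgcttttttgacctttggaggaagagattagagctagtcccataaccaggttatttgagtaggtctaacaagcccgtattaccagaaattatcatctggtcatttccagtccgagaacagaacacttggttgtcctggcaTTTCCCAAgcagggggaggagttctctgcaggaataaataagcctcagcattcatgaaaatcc
LCN2, chr9:128149203-128149452, plus strand: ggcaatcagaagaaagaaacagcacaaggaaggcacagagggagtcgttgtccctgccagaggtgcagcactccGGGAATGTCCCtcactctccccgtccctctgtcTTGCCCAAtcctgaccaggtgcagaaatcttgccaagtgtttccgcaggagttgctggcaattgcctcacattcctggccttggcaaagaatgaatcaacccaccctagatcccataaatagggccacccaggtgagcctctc
The C/EBP letters stood in 8 of the 10 windows of these 7 genes, since LTF and SERPINA1 have several starts, and in 36.8% of the 35116 promoter windows of the table. The NF-kappaB letters stood in 2 windows, LCN2 and PTX3, and in 22.6% of all windows, and in LCN2 the matches on the 2 strands overlap. The letters TTCNNNGAA, a STAT consensus, stood in 1 window, of LTF, and in 7.66% of all. The full windows of the 4 printed genes, which run to 50 bases after the start, held no match after it. The matches lay at -181 to -174 in RNASE7, -156 to -149 (C/EBP) and -97 to -88 (NF-kappaB) in PTX3, and -63 to -56 in SERPINA3. In LCN2 the C/EBP match lay at -143 to -136. A match is a run of letters and no measurement of binding.

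RNASE7, a secreted ribonuclease of skin and other epithelia that kills bacteria, read higher with C/EBPbeta-2 on all 3 arrays. On probe set 233488_at it had log2 intensities of 3.75, 5.06 and 5.04 on the C/EBPbeta-2 arrays, against 3.12, 3.53 and 3.38 on the control arrays. The groups did not overlap, and C/EBPbeta-2 replicate 1 lay nearer to the controls than to the other C/EBPbeta-2 arrays. The log2 difference was 1.27 (SE 0.37, 95% interval 0.37 to 2.17, adjusted p = 0.543 over all genes), a 2.41-fold higher geometric mean. Leaving out C/EBPbeta-2 replicate 1 gave 1.71 with an adjusted p of 0.102, the lowest adjusted p of this gene under any alternative. A second probe set, 234700_s_at, read 3.90, 4.19 and 4.34 with C/EBPbeta-2, against 3.23, 3.64 and 3.12 in control cells, again without overlap. Its log2 difference was 0.81 (SE 0.20, adjusted p = 0.594 over all probe sets). The third, 234699_at, did overlap, at 3.21, 4.09 and 3.42 with C/EBPbeta-2, against 3.20, 3.35 and 3.27 in control cells, and had a log2 difference of 0.30. The difference of 234699_at came down to 0.041 without C/EBPbeta-2 replicate 2 and was 0.0036 within the high spike-in level. For all 3 probe sets, all values but those of 233488_at on C/EBPbeta-2 replicates 2 and 3 lay under the array medians. Within the low spike-in level the difference of 233488_at was 1.94 (1 array a group), and within the high level it was 0.94.

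The other ribonucleases of the family did not pass the test. Of 13 listed genes of the RNase A family other than RNASE7, with the ribonuclease inhibitor RNH1 among them, 6 were measured and 0 were called, with 0 at an unadjusted p under 0.05. The largest difference was that of ANG, angiogenin, at -0.59 (SE 0.52). RNASE1, the pancreatic-type ribonuclease, was the one whose groups did not overlap, with a log2 difference of 0.19 (SE 0.14). Of all genes, 4.62% were higher without overlap.

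PTX3, a long pentraxin that is secreted at sites of inflammation and marks microbes for uptake, read lower with C/EBPbeta-2 on all 3 arrays. Its probe set 206157_at read 3.11, 3.75 and 2.87 on the C/EBPbeta-2 arrays, against 6.53, 4.297 and 4.28 on the control arrays. The groups did not overlap, but control replicate 1 stood far above the other control arrays. It was the only array on which PTX3 lay above the array's median, so the fold below is uncertain. The log2 difference was -1.80 (SE 0.63, 95% interval -3.31 to -0.28, adjusted p = 0.730), a 3.48-fold lower geometric mean. Without control replicate 1 it was -1.05 (adjusted p = 0.671). Within the low spike-in level, of 1 array a group, that one and C/EBPbeta-2 replicate 2, the difference was -2.79, and within the high level it was -1.30. The ACTB 3′ minus 5′ value of each array was taken as a measure of shortened RNA or cDNA. With it in the fit, the PTX3 difference was -1.90 (SE 0.34, adjusted p = 0.111), the lowest adjusted p of this gene under any alternative.

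PTX3 is also made by fibroblasts and other stromal cells, and of 10 markers of fibroblasts, all 10 measured, 1 fell with C/EBPbeta-2, the serine protease FAP (log2 difference -3.21, adjusted p = 0.0327), a call that the omission of any single array ended (adjusted p 0.0533 to 0.159), as did the spike-in level in the fit (0.0501). Their summed intensity was 381 to 612 on the C/EBPbeta-2 arrays, against 858 to 3894 on the control arrays. Decorin, DCN, a matrix proteoglycan, read 8.16, 7.38 and 7.11 with C/EBPbeta-2, against 11.76, 9.74 and 8.98 in control cells, and was highest on the same array as PTX3 (log2 difference -2.61, adjusted p = 0.445). The collagen gene COL1A1, a defining marker of fibroblasts, differed by -0.13 (SE 0.16), and 6 of the 10 markers had a mean under the array medians. The median log2 difference of the 10 was 0.05, with 6 above 0 and 4 below it. Their summed intensity weighs the brightest of them, DCN, most. The part of these markers in the PTX3 values was not tested. The short and neuronal pentraxins did not pass the test: of 6 listed, 4 were measured and 0 were called or had an unadjusted p under 0.05, and CRP, the acute-phase pentraxin of the liver, differed by -0.11 (SE 0.18).

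The antimicrobial genes LCN2, LTF and DEFB1 had log2 differences between -0.28 and 0.04. LCN2, a lipocalin that binds bacterial siderophores and so withholds iron, read 4.87, 4.10 and 4.47 with C/EBPbeta-2, against 4.86, 4.80 and 4.55 in control cells. Its highest and its lowest array were both C/EBPbeta-2 arrays. The log2 difference was -0.25 (SE 0.23, 95% interval -0.80 to 0.30). It came to -0.06 without C/EBPbeta-2 replicate 2 and -0.45 without C/EBPbeta-2 replicate 1, and to -0.76 within the low spike-in level and -0.0012 within the high one.

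LTF, lactoferrin, an iron-binding protein of milk and of neutrophil granules, read 4.18, 4.51 and 4.23 with C/EBPbeta-2, against 4.39, 4.26 and 4.16 in control cells. The groups overlapped, and the log2 difference of 0.04 (SE 0.16, 95% interval -0.35 to 0.43) turned negative when C/EBPbeta-2 replicate 2 was left out (-0.062) or control replicate 3 (-0.016). DEFB1, a beta-defensin that epithelia make without a stimulus, read 4.09, 3.85 and 3.91 with C/EBPbeta-2, against 4.16, 4.28 and 4.24 in control cells. Its groups did not overlap, but all 6 values lay within 0.431 of each other and under the array medians. The log2 difference of DEFB1 was -0.28 (SE 0.15, 95% interval -0.63 to 0.07, unadjusted p = 0.102), and 94.9% of all genes spread more within groups than it did.

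Markers of neutrophils, which store LCN2 and LTF in their granules, were all 10 measured and 0 were called, with 0 at an unadjusted p under 0.05. Their summed intensity was 137 to 180 on the C/EBPbeta-2 arrays and 142 to 218 on the control arrays. FPR1, a receptor of bacterial formyl peptides, had the largest difference (-0.87, SE 0.43) and read highest, at 6.67, on control replicate 1, the array where PTX3 was also highest. MPO, myeloperoxidase, differed by 0.28 (SE 0.28). The neutrophil elastase gene ELANE read 3.06 to 3.38 with C/EBPbeta-2 and 3.33 to 3.48 in control cells. Of 15 other lipocalins, 14 were measured and 0 were called, with differences of -0.30 (APOM, a lipocalin of lipoprotein particles) to 0.16 (LCN1, the tear lipocalin) and 0 at an unadjusted p under 0.05.

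**Figure D2:**
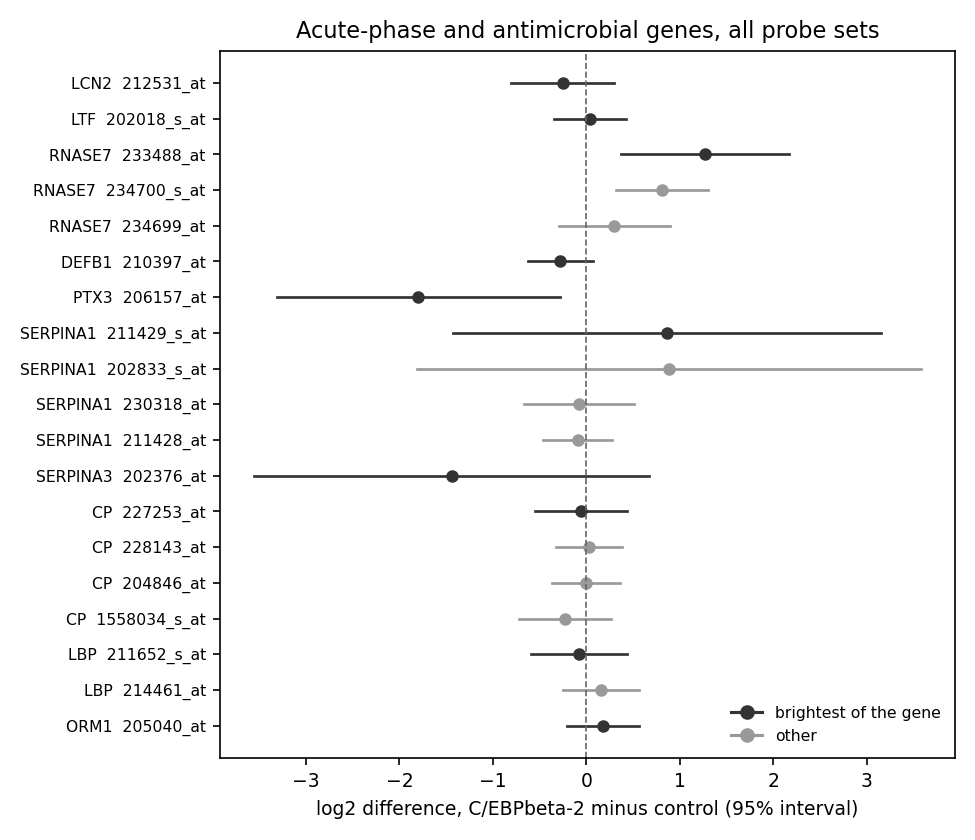
Log2 difference, C/EBPbeta-2 minus control (horizontal axis, points), with the 95% interval of the fit (lines), for all 19 probe sets (vertical axis), the brightest of each gene in dark grey. The intervals of PTX3, at -3.31 to -0.28, and of both RNASE7 probe sets 233488_at and 234700_s_at leave out 0, and those of SERPINA1 and SERPINA3 are the widest among the brightest probe sets.

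The serine protease inhibitors SERPINA1 and SERPINA3 spread most between arrays of one group. For 9 of the 10 genes, RNASE7 and PTX3 among them, the difference between the groups was smaller than the larger range within a group. SERPINA1 encodes alpha-1-antitrypsin, the main plasma inhibitor of neutrophil elastase. Its probe set 211429_s_at read 6.78, 5.00 and 8.33 with C/EBPbeta-2, against 4.79, 7.27 and 5.46 in control cells. The groups overlapped: the values spanned 3.33 among the C/EBPbeta-2 arrays and 2.48 among the control arrays, where the group means differed by 0.86 (SE 0.96, 95% interval -1.43 to 3.15, adjusted p = 1.00). The difference was 0.051 without C/EBPbeta-2 replicate 3 and 1.72 without C/EBPbeta-2 replicate 2. Leaving out control replicate 1 gave 0.34, and leaving out control replicate 2 gave 1.58. A second probe set, 202833_s_at, read 5.48, 3.13 and 7.23 with C/EBPbeta-2, against 3.39, 5.99 and 3.80 in control cells, and placed the arrays in the same order apart from the lowest pair. The remaining probe sets of SERPINA1, 230318_at and 211428_at, did not show this spread, at 3.81 to 4.66 and 2.61 to 2.97 over all 6 arrays, and differed by -0.082 and -0.093.

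SERPINA3 encodes alpha-1-antichymotrypsin, an acute-phase inhibitor of cathepsin G. It read 6.90, 6.12 and 8.01 on the C/EBPbeta-2 arrays, against 7.41, 10.40 and 7.55 on the control arrays (202376_at, log2 intensity). Control replicate 2 stood far above the rest, and the other 2 control arrays lay within the range of the C/EBPbeta-2 arrays. The log2 difference was -1.44 (SE 0.88, 95% interval -3.56 to 0.67, adjusted p = 1.00), and -0.47 (SE 0.55) without control replicate 2. Only 0.137% of all 19775 genes spread more within groups than SERPINA1 (pooled SD 1.49) and 0.273% more than SERPINA3 (pooled SD 1.37), whereas LTF (pooled SD 0.15) was exceeded by 85.5%.

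The lowest serpin values lay on the arrays with little control RNA. SERPINA1 read lowest in each group on the array with little poly-A spike-in RNA, at 5.00 for C/EBPbeta-2 replicate 2 and 4.79 for control replicate 1, and SERPINA3 likewise, at 6.12 for C/EBPbeta-2 replicate 2 and 7.41 for control replicate 1. Among the control arrays SERPINA3 did not follow the spike-in level: replicates 2 and 3, at spike-in levels of 7.30 and 7.43, read 10.40 and 7.55. The dimmer SERPINA1 probe sets 230318_at and 211428_at read lowest among the C/EBPbeta-2 arrays on replicate 3, at a high level. Among the control arrays 230318_at was lowest on replicate 1 and 211428_at on replicate 3. The arrays with a low spike-in level also had the highest ACTB 3′ minus 5′ values. These were 1.32 for C/EBPbeta-2 replicate 2 and 1.48 for control replicate 1, against 0.64 or less elsewhere. GAPDH, read in the same way, gave 0.22 and 0.12 there, against 0.21 to 0.32 elsewhere, so it did not set these arrays apart. Whether their RNA or cDNA was shortened was not tested. The 18S ribosomal RNA signal of the low spike-in arrays was the lowest (5.62 and 8.05, against 10.09 or more elsewhere). With the spike-in level in the fit the SERPINA1 difference was 0.75 (SE 0.54) and that of SERPINA3 -1.52 (SE 0.73). With the ACTB value in its place they were 1.00 (SE 0.68) and -1.32 (SE 0.67), and with the 18S level 1.23 (SE 0.65) and -1.16 (SE 0.73). Neither gene was called in these fits. Within the high spike-in level, of 2 arrays a group, SERPINA1 still read 6.78 and 8.33 with C/EBPbeta-2, against 7.27 and 5.46 in control cells. Markers of hepatocytes, the main source of both proteins in the body, were all 12 measured and 0 were called, with 0 at an unadjusted p under 0.05. Their summed intensity was 317 to 334 on the C/EBPbeta-2 arrays and 285 to 399.6 on the control arrays. The dimmest of them, ALB, albumin, read 3.01 to 3.16 with C/EBPbeta-2 and 2.88 to 3.98 in control cells, under the array medians. Of the 12, 6 had a mean under the array medians, and the highest mean was 6.33.

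**Figure D3:**
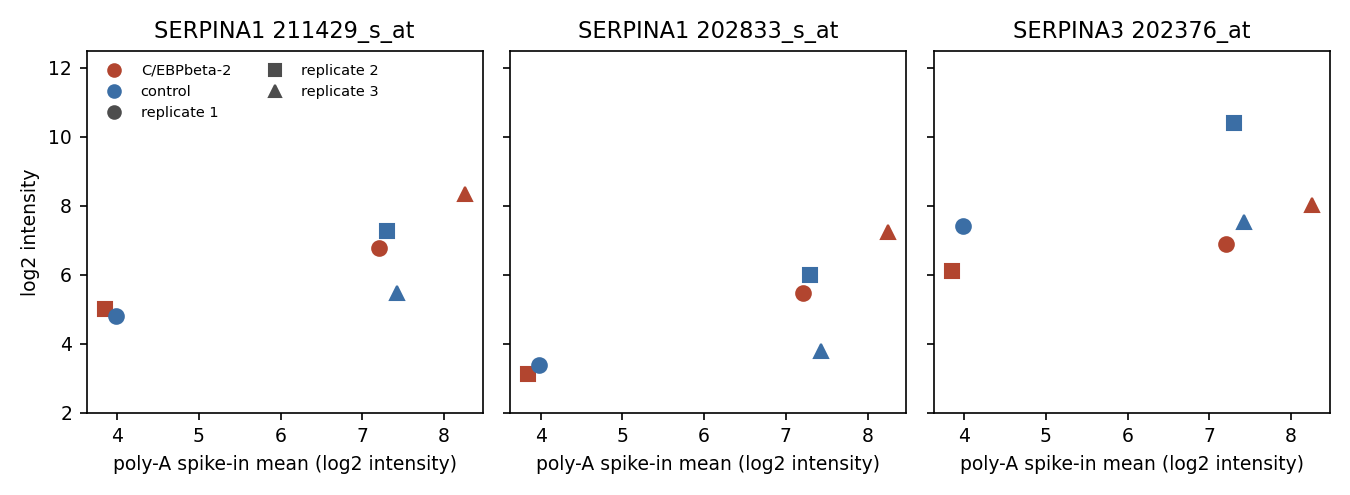
Log2 intensity (vertical axis) of SERPINA1 at 2 probe sets and of SERPINA3, against the mean log2 intensity of the poly-A spike-in probe sets of the same array (horizontal axis); each point is 1 array, C/EBPbeta-2 in red and control in blue, symbols by replicate number. The arrays at 3.85 and 3.98 hold the lowest value of each group, and control replicate 2 holds the highest value of SERPINA3, 10.40.

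SERPINA1 and SERPINA3 lie in one cluster of clade A serpins on chromosome 14, with 5 protein-coding genes between them. Of 9 other clade A serpins, 8 were measured and 0 were called or had an unadjusted p under 0.05, with differences of -0.36 (SERPINA5, the protein C inhibitor) to 0.30 (SERPINA12, vaspin). The groups did not overlap for SERPINA12 and SERPINA9, both higher with C/EBPbeta-2 and both by 0.30 or less. Of all genes, 4.62% were higher without overlap. SERPINA12 read 3.01 to 3.49 over all arrays, under the array medians. The 3 protein-coding genes on each side of every one of the 10 genes were taken as neighbours. Of 60, 48 were measured (a neighbour of more than 1 gene is counted each time). Of the 48, 0 were called and 2 had an unadjusted p under 0.05, beside 5.4% of all genes. These 2 were CLMN beside SERPINA3 (-0.98, adjusted p = 0.185) and the transglutaminase TGM2 beside LBP (1.94, adjusted p = 0.440).

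The plasma proteins CP, LBP and ORM1 had log2 differences between -0.08 and 0.18 at their brightest probe sets. CP, ceruloplasmin, a copper-binding ferroxidase, had 4 probe sets, all under the array medians on every array. The brightest, 227253_at, read 3.19, 3.66 and 3.09 with C/EBPbeta-2, against 3.18, 3.53 and 3.40 in control cells, and the log2 differences of the 4 ran from -0.23 to 0.03. LBP, which hands bacterial lipopolysaccharide to CD14, read 4.94, 4.73 and 4.79 with C/EBPbeta-2, against 4.68, 5.31 and 4.70 in control cells (211652_s_at), a log2 difference of -0.08 (SE 0.21, 95% interval -0.59 to 0.43). Its other probe set, 214461_at, differed by 0.16. ORM1, alpha-1-acid glycoprotein, an abundant acute-phase plasma protein, read 3.55, 3.24 and 3.60 with C/EBPbeta-2, against 3.26, 3.36 and 3.22 in control cells (205040_at), a log2 difference of 0.18 (SE 0.16, 95% interval -0.21 to 0.57), which was 0.11 without C/EBPbeta-2 replicate 3 and 0.29 without C/EBPbeta-2 replicate 2. The 2 probe sets annotated to both ORM1 and its near-identical neighbour ORM2 differed by 0.12 and 0.07. The groups overlapped for all of these probe sets.

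Few other acute-phase genes passed the test. Of 29 listed, 23 were measured, 1 fell and 0 rose, beside 0.263% of all genes called in either direction. The median log2 difference of the 23 was -0.09. The one that fell was C3, the central component of complement, which read 7.41, 6.92 and 7.34 with C/EBPbeta-2, against 11.08, 11.003 and 10.60 in control cells (log2 difference -3.67, SE 0.21, adjusted p = 0.00325). STEAP4, a metalloreductase, differed by -0.65 (SE 0.32) and SERPING1, the C1 inhibitor, by 0.56 (SE 0.29), neither called. HP, haptoglobin, differed by 0.14 (SE 0.30) and CFB, complement factor B, by -0.13 (SE 0.48).

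Among other secreted antimicrobial proteins, 32 of 39 were measured, 2 fell and 0 rose, beside 0.263% of all genes called in either direction. The median of the 32 was -0.05. SLPI, an inhibitor of leukocyte elastase, read 5.82, 5.82 and 5.20 with C/EBPbeta-2, against 11.40, 12.14 and 12.13 in control cells (log2 difference -6.28, SE 0.28, adjusted p = 0.00195). PI3, elafin, read 4.62, 4.34 and 4.12 with C/EBPbeta-2, against 7.92, 9.93 and 9.19 in control cells (log2 difference -4.65, SE 0.49, adjusted p = 0.0310), a call that did not survive leaving out any one C/EBPbeta-2 array or control replicate 3 (adjusted p 0.102 to 0.202). Of the 32, 6 had an unadjusted p under 0.05, all lower with C/EBPbeta-2, beside 2.74% of all genes that were lower at that threshold. S100A8, a subunit of calprotectin, differed by -3.61 (SE 0.87, adjusted p = 0.334). The antimicrobial genes CAMP, cathelicidin, and LYZ, lysozyme, differed by -0.06 and -0.04. RNASE7 differed by 1.27, and the highest difference among the 32 was 0.34.

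**Figure D4:**
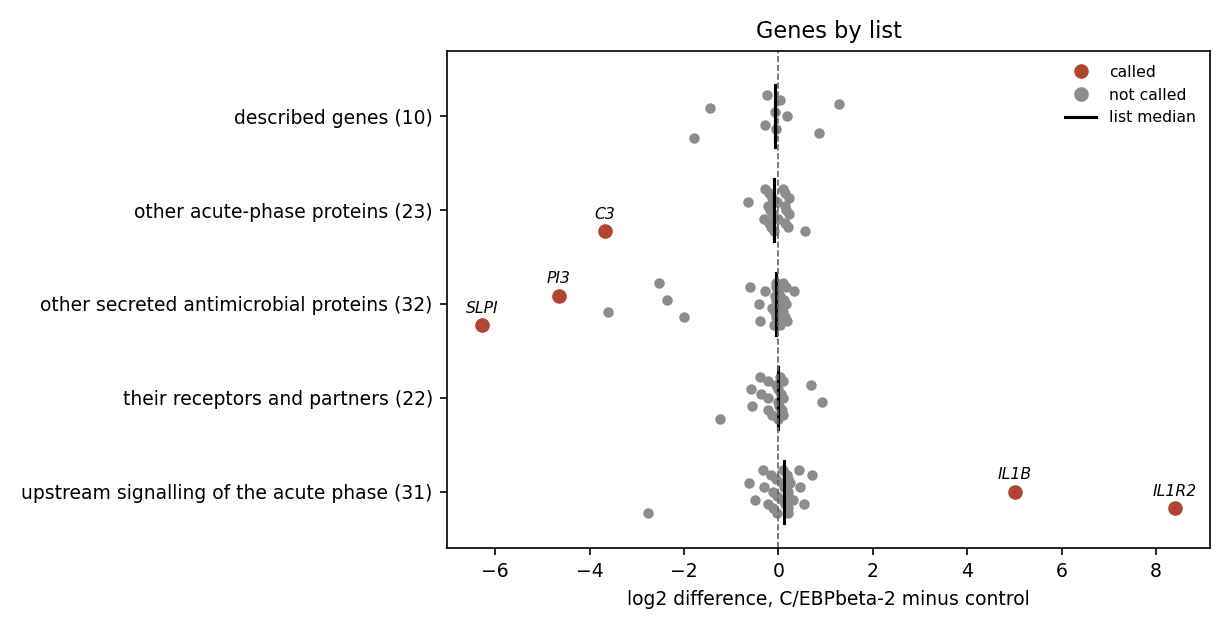
Log2 difference, C/EBPbeta-2 minus control (horizontal axis), of each measured gene (points) in 5 gene lists (vertical axis, number measured in brackets), with called genes in red and named and the list median as a black bar. C3, PI3, SLPI, IL1B and IL1R2 are the called genes, and the 10 described genes lie between -1.80 and 1.27.

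The receptors and partners of these proteins were not called either. Of 23 listed genes, 22 were measured and 0 were called, with 3 at an unadjusted p under 0.05, beside 5.4% of all genes. CD14, the co-receptor that takes lipopolysaccharide from LBP, read 7.28, 6.85 and 7.09 with C/EBPbeta-2, against 6.05, 5.98 and 6.45 in control cells, without overlap (log2 difference 0.92, SE 0.20, adjusted p = 0.260). TLR2, a receptor of bacterial lipoproteins, read 5.63, 6.23 and 6.05 with C/EBPbeta-2, against 5.08, 5.34 and 5.44 in control cells, also without overlap (0.68, SE 0.21, adjusted p = 0.577). FGF2, a growth factor that PTX3 binds, read 5.13, 5.28 and 4.08 with C/EBPbeta-2, against 6.53, 5.67 and 6.0015 in control cells, without overlap (-1.24, SE 0.38, adjusted p = 0.577). The remaining partners differed by less, among them TFRC, the transferrin receptor (-0.58, SE 0.43), and MMP9, the protease that LCN2 binds (-0.56, SE 0.52). Of the LBP and BPI family 9 of 11 genes were measured and 0 were called, and of transferrins and multicopper oxidases 5 of 6 were measured and 0 were called, each with 0 at an unadjusted p under 0.05.

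Among 33 listed genes that signal to the acute phase, 31 were measured, 2 rose and 0 fell, beside 0.263% of all genes called. IL1B, interleukin-1 beta, read 10.92, 10.69 and 11.10 with C/EBPbeta-2, against 5.81, 5.82 and 6.07 in control cells (log2 difference 5.01, SE 0.17, adjusted p = 0.000695). IL1R2, a decoy receptor that binds interleukin-1 without signalling, read 13.48, 11.94 and 13.39 with C/EBPbeta-2, against 4.32, 4.25 and 5.04 in control cells (8.40, SE 0.45, adjusted p = 0.00318). IL1RN, the receptor antagonist, differed by -2.76 (SE 0.36, adjusted p = 0.0556). At an unadjusted limma p under 0.05, 3 of the 31 were higher and 2 lower, beside 2.66% and 2.74% of all genes. The groups did not overlap for 8 of the 31, beside 8.63% of all genes. IL1A, interleukin-1 alpha, differed by 0.71 (SE 0.19, adjusted p = 0.412), without overlap. IL17RC, an interleukin-17 receptor chain, differed by -0.49 (SE 0.18, adjusted p = 0.754), also without overlap. IL6 differed by -0.04 (SE 0.25), STAT3, the transcription factor it activates, by 0.20 (SE 0.16), and SOCS3, a feedback inhibitor of that pathway, by 0.13 (SE 0.26). NFKBIZ, a coactivator of NF-kappaB at LCN2 and other antimicrobial genes, differed by -0.12 (SE 0.43). The medium held hydrocortisone in both groups, and of 12 listed glucocorticoid response genes 11 were measured and 0 were called. At an unadjusted p under 0.05 there were 4, beside 5.4% of all genes. Of these, 3 were higher and 1 lower, beside 2.66% and 2.74% of all genes. SGK1, a kinase induced by glucocorticoid, differed by 0.99 (SE 0.23, adjusted p = 0.315), and FKBP5, a co-chaperone of the glucocorticoid receptor, by -0.80 (SE 0.17, adjusted p = 0.226).

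No luminal mammary marker was called either: all 10 were measured, with 0 at an unadjusted p under 0.05, and the milk protein LALBA differed by -0.05 (SE 0.14). Of 10 markers of macrophages and lymphocytes, 9 were measured and 0 were called, with 0 at an unadjusted p under 0.05.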

How the data were processed

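The authors deposited intensities, 1 per probe set and array, made with RMA (robust multi-array average) per the submitters' processing notes, which give no version or settings. The deposited values were linear, from 4.17 to 17825, and the labels do not give the step that made them so. They were taken to log2 here with no pseudocount and no further normalization. Of 54675 probe sets, 62 manufacturer controls were set aside. One gene symbol was given for 41091 probe sets, several for 1801 and none for 11721. One linear model without covariates was fitted to all 54613 probe sets and 6 arrays in limma 3.58.1 (R 4.3.3), with moderated variances, two-sided p-values and the adjustment of Benjamini and Hochberg, taken over probe sets or over the 19775 genes. All adjusted p-values are limma's. It was tested on simulated data. Python 3.11.15 matched sequences and matplotlib 3.10.9 drew the plots.

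The members and lists were chosen with earlier results of these data known. The text names all 10 members, CEBPB, and from each list the called genes and up to 3 with the largest difference. HP, CFB, CAMP, LYZ, TFRC, MMP9, IL1A, IL17RC, IL6, STAT3, SOCS3, NFKBIZ, COL1A1, ALB, LALBA, CLMN and TGM2 were named after their values were seen. As alternatives, single arrays were omitted, the fit was blocked on the replicate number, values were normalized again, dim or shared probe sets were dropped, the variance prior, weights, gene summary or threshold was changed, or the spike-in, ACTB or 18S level was added. Precision is limited by the 3 arrays a group.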

Additional observations from a re-analysis of the deposited data

How the results depend on the processing

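Under 18 other settings, 0 of the 10 genes and, where probe sets were tested, 0 of the 19 probe sets were called. Without dim probe sets 4 of the 10 were still tested, and without probe sets ending in _x_at or _s_at 9. The count of genes called, 52, was 7 to 57 with 1 array left out and 0 with the replicate block. It was 76 with the 18S level and 106 with the ACTB value in the fit, 122 with array weights and 92 at an adjusted p under 0.10. The count of probe sets called, 36, was 5 to 37 with 1 array left out, 0 with the replicate block, 74, 78, 122 and 92 in the same order, 78 without dim probe sets and 67 with a trended and robust prior. Called genes in the lists set beside the 10, 7 in all, numbered 4 to 6 with 1 array left out, 0 with the replicate block and 11 with the ACTB value. Replicate numbers did not pair the arrays: the deviations of same-numbered arrays correlated at -0.45, -0.55 and 0.42. As a hint from the data and not the design, C/EBPbeta-2 replicate 1 correlated best with control replicate 2 (0.64), replicate 2 with control replicate 1 (0.66) and replicate 3 with control replicate 3 (0.42).

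The differences of 5 genes changed sign. LTF gave -0.062 and -0.016 without C/EBPbeta-2 replicate 2 and control replicate 3, -0.0017 with the 18S level and -0.0027 within the high spike-in level. CP gave 0.0034, 0.052 and 0.021 without C/EBPbeta-2 replicates 1 and 3 and control replicate 2, 0.47 within the low spike-in level and 0.028 at 228143_at, and ran from -0.23 to 0.052 with 1 array left out. LBP gave -0.19 to 0.13 with 1 array left out (0.13 without control replicate 2), 0.046 with array weights, 0.041 with the mean of its probe sets, 0.052 within the low spike-in level, and 0.16 at 214461_at, which was also its value without shared probe sets. SERPINA1, at 0.86 in the report, gave -0.082 at 230318_at, also its value without shared probe sets, and -0.093 at 211428_at. ORM1 gave -0.024 within the low spike-in level. The causes were not tested.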
